A study of Mus musculus with 16 samples.

Results

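The rows treated here belong to the transforming growth factor beta (TGF-beta) family and its response, and are 7 of the 47517 gene rows counted in every library. They were taken by name: Tgfb1 and Bmp3 are named for ligands, Thbs1 for an activator of latent TGF-beta and Ctgf for a gene that TGF-beta induces. The other rows, Gm37804, Gm29491 and D030025P21Rik, lie on the strand opposite Tgfb3, Tgfb2 and Ltbp2. Several were chosen by their fragment counts, which differed between the genotypes, so their genotype differences are given as values with a standard error (SE) and without a test. The same holds for loading within a genotype and for the difference in loading response, which use the same loaded libraries. The loading effect averaged over both genotypes also uses those libraries, but it compares limbs with equal weight for each genotype, and it was tested. As the rows were chosen with earlier results of these data known, its p-values may not be independent of that choice.

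RNA was sequenced from cortical bone of both tibiae of 8 male mice, 4 of the genotype Ctrl and 4 of the genotype NT3-Cre+ (NT3 from here on), all 16 weeks old. In each mouse the right tibia was compressed along its axis on 9 days with 1200 cycles per day, and the left tibia stayed non-loaded, which gives 4 groups of 4 libraries. Loaded limbs of NT3 mice received a peak of 10 N and those of Ctrl mice 8.7 N, set for a strain of -2000 microstrain in both, and the bones were collected 4 hours after the final session. The series title speaks of NF-kB inducing kinase (NIK) activated in the osteolineage, and the allele, the Cre driver and the Ctrl genotype are not given in the sources used here. All limbs were freed of muscle and spun to remove marrow, and the mean RNA integrity number given for the study was 5.4.

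Libraries held 758394 to 1064391 counted fragments, of which rows annotated as ribosomal RNA took 4.14% to 13.7%. Of osteocyte genes, the Dmp1 row held 45 to 161 fragments per library, Mepe 34 to 127, Sost 4 to 47 and Irx5 5 to 35. Phex held 3 to 9, Dkk1 0 to 9, Pdpn 0 to 4 and Fgf23 0 to 1. Of osteoblast genes, Col1a1 held 34 to 430, Ibsp 57 to 235 and Col1a2 20 to 208. Runx2 held 54 to 107, Phospho1 46 to 102, Smpd3 15 to 42 and Spp1 2 to 23. Alpl held 0 to 15, Sp7 0 to 9, Bglap2 0 to 1 and Bglap, named for the osteoblast product osteocalcin, 0 to 4. Neither list was high or low throughout. Each library is a whole piece of bone, so fewer cells of a type and less RNA per cell cannot be told apart.

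TGF-beta ligands are secreted in a latent form, held to their propeptide and, through latent TGF-beta binding proteins, to the matrix, and bone matrix is a large store of them. Integrins, proteases and thrombospondin release the ligand, which signals through serine/threonine kinase receptors to Smad transcription factors. In bone this signalling is known for coupling resorption to formation and for steering osteoblast differentiation and osteocyte function, while bone morphogenetic proteins (BMPs) use a parallel set of receptors and Smads.

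The 3 rows named by clone or Rik identifiers overlapped exons of the family gene on the other strand. Positions are in GRCm38 (the mm10 build used for the counts) and come from the GENCODE annotation. Gm37804 (chr12:86069173-86069779, plus strand, 547 exonic bases, of the annotation class TEC, whose transcripts await experimental testing) shared 163 bases, 29.8% of its length, with exons of Tgfb3, all of them protein coding there. Gm29491 (chr1:186705695-186707033, plus strand, an antisense transcript of 506 exonic bases) shared 124 bases, 24.5%, with exons of Tgfb2, of which 0 were coding. D030025P21Rik (chr12:84875769-84879755, plus strand, antisense) shared 764 bases with Ltbp2, 523 of them coding. Its length in the deposited files was 2364 bases and that of its annotated model 3987, so the annotation used for counting differed from this one for that row.

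The 4 rows named for family genes are protein coding and also lie on the plus strand: Tgfb1 (chr7:25687002-25705077), Bmp3 (chr5:98854415-98884396), Thbs1 (chr2:118111876-118127133) and Ctgf (chr10:24595442-24598683, named Ccn2 in current annotation). Tgfb1 and Bmp3 had no annotated exon opposite with an overlap of at least 20 bases. Ctgf shared 665 bases, 23.2% of its length, with Gm15270, and Thbs1 shared 208 bases, 3.4% of its length, with Gm29233. Those 208 bases were 74.0% of the 281 bases of Gm29233.

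The sequences below show how closely a row and the gene opposite are interleaved, which is why a count under either name needs the other beside it. They are written 5′ to 3′ on the strand stated. The first is the stretch of the Gm37804 transcript at chr12:86069317-86069506, plus strand, with the 130 bases of its longest overlap with a Tgfb3 exon in capitals. The second is the start of Tgfb2, chr1:186705960-186706239 on the minus strand, from 250 bases before the start of Tgfb2 to 30 after it, with the 197 bases that lie in Gm29491 exons in capitals, 30 of them in the Tgfb2 exon as well and 167 upstream of it. The third is the window around the start of D030025P21Rik, chr12:84875552-84875851 on the plus strand, with the 96 bases that lie in Ltbp2 exons in capitals, 83 of them in the D030025P21Rik exon as well and 13 before its start. The Gm37804 bases are from the GENCODE transcripts, and the windows around gene starts are from RefSeq (GRCm38.p6).
Gm37804: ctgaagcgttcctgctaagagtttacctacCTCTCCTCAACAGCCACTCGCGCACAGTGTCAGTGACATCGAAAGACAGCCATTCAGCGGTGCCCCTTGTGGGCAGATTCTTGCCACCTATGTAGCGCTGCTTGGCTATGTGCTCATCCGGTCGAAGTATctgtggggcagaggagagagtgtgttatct
Tgfb2: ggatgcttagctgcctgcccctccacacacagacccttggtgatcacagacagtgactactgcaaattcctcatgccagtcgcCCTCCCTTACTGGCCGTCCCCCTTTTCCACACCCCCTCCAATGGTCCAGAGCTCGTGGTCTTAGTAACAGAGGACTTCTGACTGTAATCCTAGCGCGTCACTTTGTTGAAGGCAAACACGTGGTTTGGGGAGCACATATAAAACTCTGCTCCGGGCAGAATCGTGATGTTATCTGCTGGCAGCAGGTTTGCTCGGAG
D030025P21Rik: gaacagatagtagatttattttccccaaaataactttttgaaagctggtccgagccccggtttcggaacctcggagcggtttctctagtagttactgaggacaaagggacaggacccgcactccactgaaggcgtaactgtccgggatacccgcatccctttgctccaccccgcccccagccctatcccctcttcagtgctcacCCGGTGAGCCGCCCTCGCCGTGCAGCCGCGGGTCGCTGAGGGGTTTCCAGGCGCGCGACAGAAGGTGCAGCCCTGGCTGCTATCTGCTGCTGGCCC
The Gm37804 overlap sits inside the body of Tgfb3, whereas Gm29491 covers the bases in front of Tgfb2. The full RefSeq window of Ltbp2 (chr12:84876442-84876741, minus strand) lay within D030025P21Rik exons over 300 of its 300 bases.

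RefSeq windows, from 250 bases before a start to 50 after, were found for 4 of the 10 members and opposite genes looked up: Tgfb1, Tgfb2, D030025P21Rik and Ltbp2. They were searched on both strands for the NF-kB consensus, for the Smad-associated motif CAGAC and for the AP-1 motif TGANTCA, none of which matched bases that another of them matched. The NF-kB consensus matched 1 time in the Tgfb1 window and 0 times in the other windows, and 8.5% of all 32817 windows held it. CAGAC matched 2 times at Tgfb2, 3 times at Ltbp2 and 0 times at Tgfb1 and D030025P21Rik, and 49.6% of all windows held it. TGANTCA matched 0 times in all 4 windows, against 7.8% of all windows. A match describes letters in a window and no binding was measured.

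**Figure D1:**
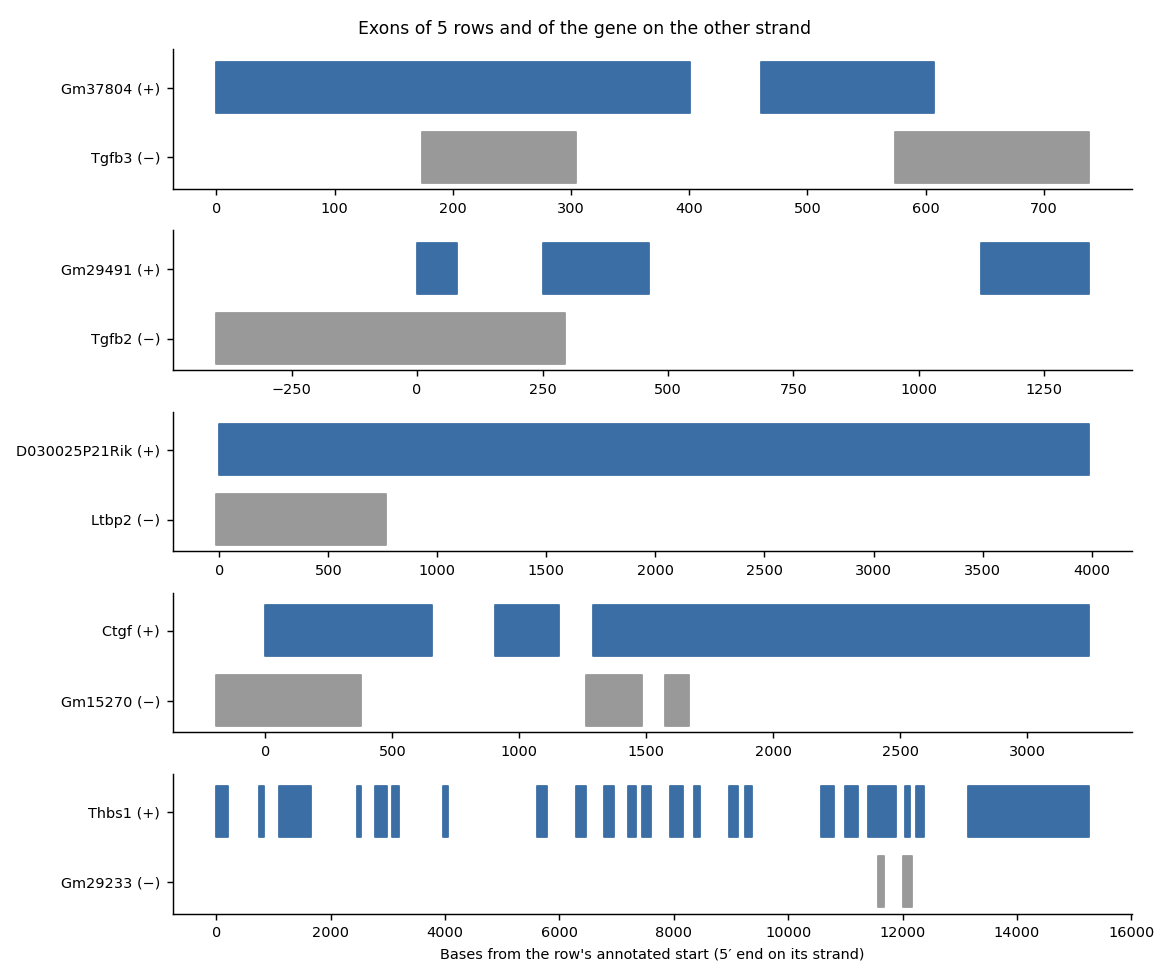
Exons of 5 rows (blue) and of the gene on the other strand (grey), drawn to scale against the distance in bases from the start of the row, with strands in brackets. Gm37804, Gm29491 and D030025P21Rik each lie over part of Tgfb3, Tgfb2 and Ltbp2 in turn (163, 124 and 764 shared bases), whereas Ctgf and Thbs1 are themselves crossed by the noncoding Gm15270 and Gm29233.

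Levels set side by side need a scale per length, here TMM-scaled fragment counts per 1e+06 counted fragments (CPM) divided by the row length in kilobases. On this scale the mean level over 16 libraries was 271 for Gm37804 against 2.57 for Tgfb3, 223 for Gm29491 against 3.35 for Tgfb2, and 172 for D030025P21Rik against 2.51 for Ltbp2. The row opposite the ligand or latency gene thus had 106, 66.6 and 68.8 times the per-length level of the row named for that gene. In single libraries the ratio of Gm37804 to Tgfb3 ran from 30.9 to 319, that of Gm29491 to Tgfb2 from 25.9 to 119 and that of D030025P21Rik to Ltbp2 from 20.8 to 246.

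Ctgf and Thbs1 stood the other way round. The per-length level of Ctgf was 18.5 against 350 for Gm15270, and that of Thbs1 was 2.53 against 2875 for Gm29233, ratios of 18.9 and 1136 in favour of the noncoding row. Tgfb1 had 3.30 and Bmp3 4.58 on the same scale. In order of per-length level the rows were Gm37804, Gm29491, D030025P21Rik, Ctgf, Bmp3, Tgfb1 and Thbs1, and the SDs over libraries of the first 3 (126, 98.0 and 107) and of the last 3 (2.09, 1.41 and 1.1) were larger than the gaps between them.

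Whether a fragment came from the named row or from the gene across from it cannot be read from the count of a row alone. The strand setting of the counting is not given in the sources used here. In non-loaded Ctrl limbs the rows opposite marrow genes summed to 3422 to 9084 CPM, against 56.1 to 154 CPM for rows by name. For osteoblast genes these were 733 to 1342 and 292 to 555 CPM. Macrophage and osteoclast genes went the other way, with 11.7 to 31.8 and 161 to 192 CPM, as did smooth muscle genes, and B lymphoid sums overlapped. What these sums say of the strand counted was not tested. The count under a name need not be a measure of that gene, and the 3 opposite rows may not measure the noncoding transcripts either. Across 16 libraries the log2 CPM of a row and of its opposite row correlated with r = 0.22 for Gm37804 and Tgfb3, 0.62 for Gm29491 and Tgfb2, 0 for D030025P21Rik and Ltbp2, 0.49 for Ctgf and Gm15270 and 0.22 for Thbs1 and Gm29233. With group means removed these became -0.21, 0.07, 0.42, 0.26 and 0.17, and the points share library depth.

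**Figure D2:**
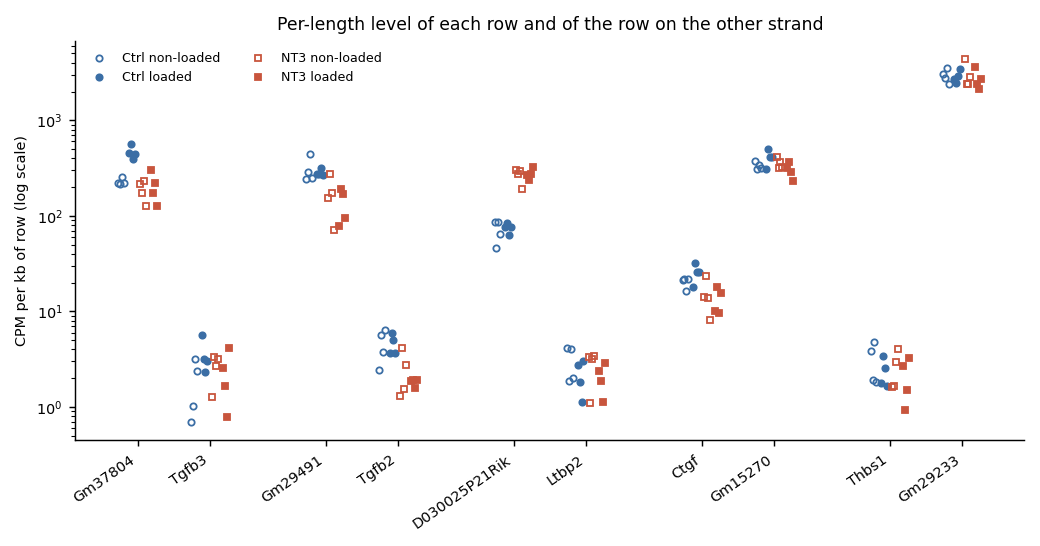
Level per kilobase (CPM per kb, log axis) of 5 rows, each followed by the row on the other strand, with 1 point per library, blue for Ctrl and red for NT3, open for non-loaded and filled for loaded limbs. Gm37804, Gm29491 and D030025P21Rik lie above Tgfb3, Tgfb2 and Ltbp2 in all 16 libraries, and Ctgf and Thbs1 lie below Gm15270 and Gm29233 in all 16.

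Among the rows tied to ligands, Gm37804 was the row with a large loading response. Tgfb3, the gene opposite, encodes the third TGF-beta ligand, which is made by osteoblasts, chondrocytes and tendon cells. In Ctrl mice 1 to 4, Gm37804 held 103, 100, 129 and 118 fragments in the non-loaded tibia and 209, 311, 165 and 213 in the loaded one. In NT3 mice 1 to 4 it held 109, 85, 97 and 65 in the non-loaded tibia and 154, 68, 92 and 50 in the loaded one. All 4 loaded Ctrl libraries stood above the other 12, while the NT3 limbs overlapped, with 69.3 to 125 CPM non-loaded and 70.1 to 166 CPM loaded.

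Scaled to library size, Gm37804 averaged 124 ± 10.1 CPM in non-loaded and 253 ± 38.7 CPM in loaded Ctrl limbs, and 102 ± 25.3 and 113 ± 40.9 CPM in NT3 (mean ± SD, n = 4 mice). The ratio of loaded to non-loaded CPM within a mouse was 2.06, 2.63, 1.55 and 2.00 in Ctrl and 1.4, 0.990, 0.968 and 1.01 in NT3. Each Ctrl mouse thus rose with loading by more than any NT3 mouse. Averaged over the genotypes, loading raised Gm37804 1.49-fold (log2 0.57, SE 0.11; edgeR adjusted p = 0.000419), with 6 of 8 mice higher in the loaded limb.

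That average combines unequal parts, a fitted log2 change of 1.02 (SE 0.15) in Ctrl and of 0.13 (SE 0.16) in NT3, so the difference in response was -0.89 (SE 0.22). The genotype difference in level was -0.30 (SE 0.19) in non-loaded limbs, where the groups overlapped, and -1.16 (SE 0.19) in loaded limbs, where they did not, a 2.23-fold lower level in NT3. The Tgfb3 row held 2 to 16 fragments per library, was removed by the low-count filter and was not tested. Its group means were 6.20 ± 3.95 and 12 ± 4.90 CPM in non-loaded and loaded Ctrl and 8.84 ± 3.14 and 7.72 ± 4.86 CPM in NT3.

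With the mean level of 9 marrow marker rows as a covariate, the loading average of Gm37804 was 0.70 (SE 0.20) and no longer passed (edgeR adjusted p = 0.106), while over the other alternatives it stayed called. Those marrow rows averaged 5.89 to 6.62 log2 CPM in non-loaded and 5.65 to 5.86 in loaded Ctrl limbs, and 5.88 to 6.21 and 5.71 to 6.09 in NT3. The 3 rows opposite osteoblast genes summed to 733 to 1342 CPM in non-loaded and 3799 to 5787 CPM in loaded Ctrl limbs, against 916 to 1823 and 2167 to 4192 CPM in NT3. The osteoblast rows thus stood higher in loaded limbs of both genotypes without overlap. The marrow rows stood lower in loaded than in non-loaded Ctrl limbs without overlap, but the NT3 limbs overlapped and NT3 mouse 2 went from 5.88 to 6.09 with loading. The 15 rows named for marrow genes overlapped between limbs in both genotypes, with 56.1 to 154 and 70.0 to 97.8 CPM in non-loaded and loaded Ctrl and 82.8 to 124 and 69.0 to 109 CPM in NT3. The part of any of these in the Gm37804 change was not tested beyond that covariate.

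Loading changed 1 of the 7 rows on average over the genotypes, Gm37804, at an edgeR adjusted p below 0.05, where 4.39% of all 7192 rows tested were called. For the other 6 rows, the averaged loading effects were -0.20 (SE 0.13; edgeR adjusted p = 0.496) for Gm29491, 0.09 (SE 0.13; edgeR adjusted p = 0.840) for D030025P21Rik and 0.07 (SE 0.29; edgeR adjusted p = 0.953) for Tgfb1. They were -0.36 (SE 0.21; edgeR adjusted p = 0.436) for Bmp3, 0.09 (SE 0.17; edgeR adjusted p = 0.884) for Ctgf and -0.32 (SE 0.29; edgeR adjusted p = 0.671) for Thbs1. The 95% intervals of these values, by a normal approximation, ran from -0.45 to 0.05 for Gm29491 and from -0.17 to 0.35 for D030025P21Rik, but from -0.49 to 0.63 for Tgfb1 and from -0.88 to 0.25 for Thbs1. A change of modest size could therefore not be told from none in the low-count rows. Over 14 alternatives the Bmp3 value ran from -1.13 to -0.22, with a lowest edgeR or DESeq2 adjusted p of 0.157.

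Gm29491 lies across the start of Tgfb2, which encodes a ligand needed for skeletal patterning and made by osteoblasts and osteocytes. It held 105, 125, 208 and 123 fragments in non-loaded and 115, 142, 123 and 120 in loaded tibiae of Ctrl mice 1 to 4. In NT3 mice 1 to 4 it held 72, 123, 68 and 34 fragments in non-loaded and 37, 69, 65 and 34 in loaded tibiae. The loaded limbs of the genotypes did not overlap in CPM (136 to 161 in Ctrl, 39.9 to 96.4 in NT3), and in non-loaded limbs NT3 mouse 2, at 139 CPM, lay within the Ctrl range of 123 to 224.

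The fitted genotype difference of Gm29491 was -0.87 (SE 0.36) in non-loaded and -1.10 (SE 0.21) in loaded limbs, the latter a 2.14-fold lower level in NT3. Group means were 155 ± 47.5 and 143 ± 11.8 CPM in non-loaded and loaded Ctrl and 85.3 ± 42.2 and 67.4 ± 27.8 CPM in NT3 (mean ± SD, n = 4). Loading changed it by -0.08 (SE 0.17) in Ctrl and -0.32 (SE 0.19) in NT3. Unlike Gm37804, the lower level in NT3 was thus present on both sides at a similar size, with a difference in response of -0.25 (SE 0.26).

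The Tgfb2 row itself, which was not among the rows chosen, held 12, 28, 20 and 36 fragments in non-loaded and 18, 35, 22 and 19 in loaded Ctrl limbs. In NT3 it held 7, 21, 7 and 15 in non-loaded and 10, 8, 7 and 8 in loaded limbs. Tgfb2 was lower in loaded NT3 than in loaded Ctrl limbs by a fitted log2 of -1.32 (SE 0.37; edgeR adjusted p = 0.0466), 26.6 ± 6.36 against 10.6 ± 0.943 CPM. In non-loaded limbs the value was -0.90 (SE 0.38; edgeR adjusted p = 0.533). The loaded call stood near the threshold: it was lost without any 1 of the 8 mice, without the low-count filter and with the marrow covariate. Over 13 alternatives the log2 value ran from -1.41 to -1.15, with an edgeR or DESeq2 adjusted p of 0.046 to 0.196. Gm29491 and Tgfb2 share 124 exonic bases, 24.5% of Gm29491 and 2.1% of Tgfb2. As the strand setting is not given, how far their values are separate measurements of the locus is not known.

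Tgfb1, the ligand most abundant in bone matrix, was counted at low depth. It held 13, 10, 20 and 10 fragments in non-loaded and 11, 18, 17 and 31 in loaded Ctrl limbs. In NT3 it held 17, 23, 7 and 14 in non-loaded and 9, 10, 14 and 6 in loaded limbs. The groups overlapped in both limbs, and the highest libraries were loaded Ctrl mouse 4, at 35 CPM, and non-loaded NT3 mouse 2, at 26.0 CPM.

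Tgfb1 means were 14.7 ± 5.07 and 22 ± 9.42 CPM in non-loaded and loaded Ctrl and 17.1 ± 7.08 and 12.6 ± 4.54 CPM in NT3. The fitted loading change was 0.57 (SE 0.39) in Ctrl, with 3 of 4 mice higher, and -0.43 (SE 0.41) in NT3, with 1 of 4 mice higher. Its difference in response, -1.0 (SE 0.57), was the lowest of the 7, and its SE was over 2 times that of Gm37804. The genotype difference was 0.22 (SE 0.38) in non-loaded and -0.80 (SE 0.40) in loaded limbs.

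Bmp3 encodes a BMP family member that opposes osteogenic BMPs and is made by osteoblasts and osteocytes. The row held 21, 55, 33 and 52 fragments in non-loaded and 26, 50, 38 and 31 in loaded Ctrl limbs. In NT3 it held 25, 40, 30 and 11 in non-loaded and 13, 11, 23 and 12 in loaded limbs. In loaded limbs the genotypes did not overlap, though the highest NT3 limb, at 30.3 CPM, lay next to the lowest Ctrl limb, at 31.0 CPM.

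The Bmp3 genotype difference was -0.55 (SE 0.35) in non-loaded and -1.11 (SE 0.31) in loaded limbs, where NT3 was 2.16-fold lower (41.3 ± 9.70 against 19.1 ± 7.53 CPM). Loading changed Bmp3 by -0.08 (SE 0.27) in Ctrl and by -0.65 (SE 0.32) in NT3, with 2 of 4 and 1 of 4 mice higher. Its difference in response of -0.57 (SE 0.42) became 0.19 with the marrow covariate, which also took the Ctrl loading value to -1.23.

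D030025P21Rik, opposite Ltbp2, was the only chosen row with a higher fitted level in NT3 in both limbs. Ltbp2 encodes a matrix protein of elastic and microfibrillar tissue that belongs to the latent TGF-beta binding proteins by structure but is not known to bind the latent ligand. The row held 174, 94, 188 and 151 fragments in non-loaded and 151, 201, 114 and 160 in loaded Ctrl limbs. In NT3 it held 663, 569, 546 and 422 in non-loaded and 588, 405, 494 and 550 in loaded limbs. Every NT3 library stood above every Ctrl library, with 450 to 771 CPM in NT3 and 110 to 205 CPM in Ctrl.

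D030025P21Rik averaged 168 ± 45.3 and 177 ± 20.6 CPM in non-loaded and loaded Ctrl, and 630 ± 124 and 655 ± 85.5 CPM in NT3. The genotype difference was 1.90 (SE 0.19) in non-loaded and 1.88 (SE 0.14) in loaded limbs, 3.73-fold and 3.69-fold higher in NT3. Summed over both limbs, Ctrl mice held 295 to 325 fragments and NT3 mice 972 to 1251. Loading changed the row by 0.11 (SE 0.20) in Ctrl and 0.07 (SE 0.18) in NT3.

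The Ltbp2 row did not share this pattern. It held 7 to 31 fragments per library, and its genotype difference was -0.15 (SE 0.36; edgeR adjusted p = 0.961) in non-loaded and -0.08 (SE 0.40; edgeR adjusted p = 0.973) in loaded limbs. The 2 rows with profiles most like D030025P21Rik over the 16 libraries were Tbc1d17, opposite Il4i1 and Akt1s1 (r = 0.967, and 0.671 with group means removed), and Zmynd15, opposite the chemokine gene Cxcl16 (r = 0.966 and 0.61). The 4 rows opposite B lymphoid genes summed to 204 to 385 CPM in non-loaded and 166 to 220 CPM in loaded Ctrl limbs, and to 446 to 715 and 424 to 690 CPM in NT3. The 8 rows named for B lymphoid genes summed to 217 to 240 CPM in non-loaded and 282 to 383 CPM in loaded Ctrl limbs, and to 292 to 365 and 300 to 341 CPM in NT3. That sum mostly followed Cd72, which held 155 to 315 fragments per library, against 9 to 22 for Cd79a and 3 to 15 for Ebf1. The rows opposite thus separated the genotypes in both limbs, as D030025P21Rik did, while the rows by name overlapped between genotypes in loaded limbs. The part of either in its difference was not tested.

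Thbs1 encodes thrombospondin, a matrix protein that can release TGF-beta from its latent complex. It was the row with the lowest per-length level, with 20, 10, 27 and 11 fragments in non-loaded and 9, 21, 12 and 9 in loaded Ctrl limbs. In NT3 it held 9, 9, 14 and 23 in non-loaded and 15, 4, 7 and 14 in loaded limbs. All 4 groups overlapped.

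The Thbs1 genotype difference was -0.28 (SE 0.39) in non-loaded and -0.18 (SE 0.45) in loaded limbs, and loading changed it by -0.34 (SE 0.39) in Ctrl and -0.29 (SE 0.42) in NT3. Each of these values was smaller than its SE. Gm29233, the short row across its exons, held 456 to 1132 fragments and had a genotype difference of -0.08 (SE 0.15; edgeR adjusted p = 0.887) in loaded limbs.

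Ctgf encodes a matricellular protein that TGF-beta and mechanical strain are known to induce. The row held 52, 54, 43 and 62 fragments in non-loaded and 43, 93, 56 and 66 in loaded Ctrl limbs. In NT3 it held 37, 59, 31 and 22 in non-loaded and 27, 37, 21 and 32 in loaded limbs. In loaded limbs the ranges met, with 51.3 to 91.9 CPM in Ctrl and 27.6 to 51.7 CPM in NT3, and in non-loaded limbs NT3 mouse 2 lay above all Ctrl mice.

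Ctgf means were 58.4 ± 8.08 and 72.7 ± 16.6 CPM in non-loaded and loaded Ctrl and 42.6 ± 17.8 and 38.3 ± 11.8 CPM in NT3. The genotype difference was -0.47 (SE 0.26) in non-loaded and -0.94 (SE 0.25) in loaded limbs. Loading changed it by 0.30 (SE 0.22) in Ctrl, with 3 of 4 mice higher, and by -0.13 (SE 0.25) in NT3, with 1 of 4. Gm15270, which shares 665 bases with Ctgf, held 343 to 1044 fragments, and its loaded genotype difference was -0.45 (SE 0.15; edgeR adjusted p = 0.109).

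**Figure D3:**
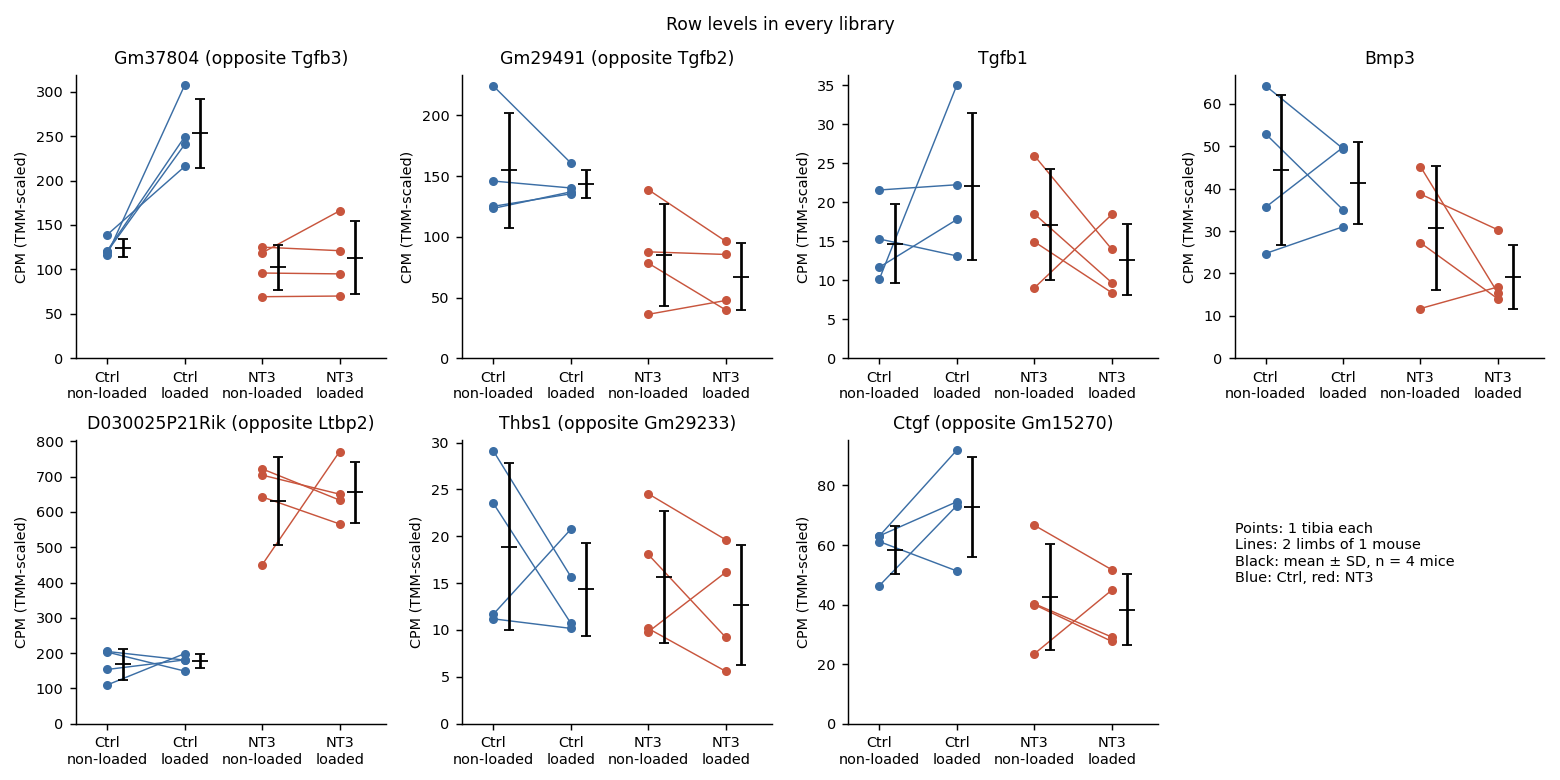
CPM of the 7 rows in each of 16 tibiae (1 point each), with lines joining the limbs of a mouse and black marks for mean ± SD of 4 mice, blue for Ctrl and red for NT3. Gm37804 rises in all 4 Ctrl mice (124 to 253 CPM on average), D030025P21Rik is higher in every NT3 limb, and the Tgfb1 and Thbs1 panels show groups that overlap.

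Side by side, 1 of the 7 rows had every NT3 value above every Ctrl value in non-loaded limbs (D030025P21Rik) and 0 had every value below, where 2.17% and 1.79% of 7192 rows did so. In loaded limbs 1 row stood wholly above (D030025P21Rik) and 3 wholly below (Gm37804, Gm29491 and Bmp3), where 3.82% and 3.56% of rows did so. The rows were picked with these differences in view, so the counts are a description. All 7 rows passed the filter on low counts in all 6 comparisons.

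**Figure D4:**
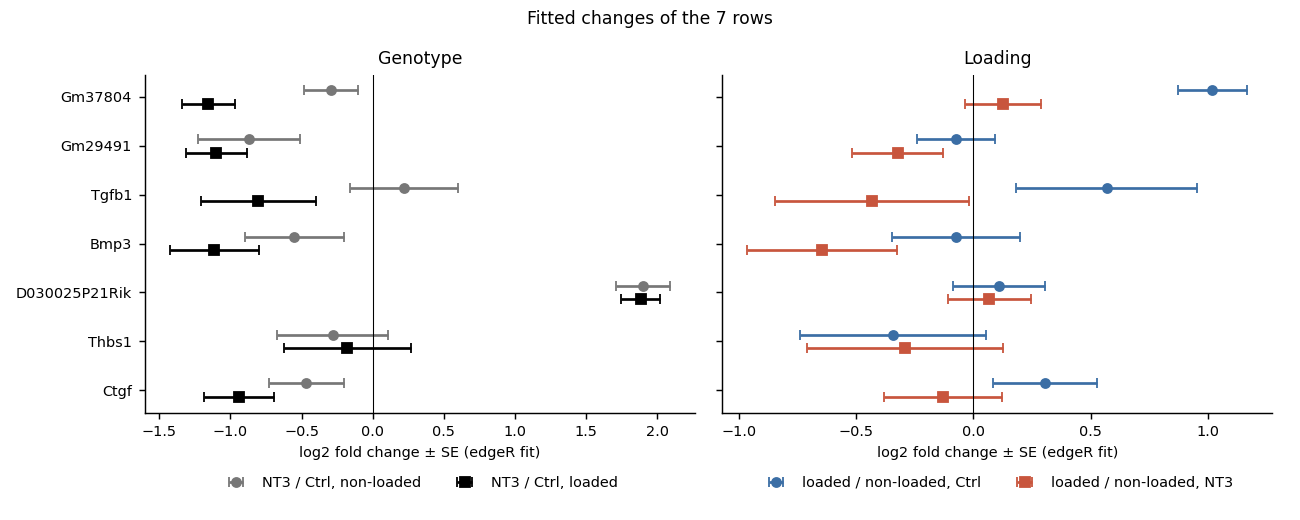
Fitted log2 fold changes of the 7 rows with bars of ± 1 SE, at left NT3 over Ctrl in non-loaded (grey circles) and loaded limbs (black squares), at right loaded over non-loaded in Ctrl (blue circles) and NT3 (red squares). D030025P21Rik lies near 1.9 in both limbs, and Gm37804 separates the genotypes under loading, with 1.02 in Ctrl and 0.13 in NT3.

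Across the 16 libraries, Gm29491, Bmp3 and Ctgf varied together. Their log2 CPM correlated with r = 0.792 (Gm29491 and Bmp3), 0.745 (Gm29491 and Ctgf) and 0.687 (Bmp3 and Ctgf), and with 0.618, 0.506 and 0.49 after group means were removed. Gm37804 and Gm29491, opposite the sister ligand genes, gave 0.506 and 0.202. D030025P21Rik was negatively related to Gm29491 (-0.681), Bmp3 (-0.602) and Ctgf (-0.629) over all libraries, with 0.245, -0.026 and 0.172 once group means were removed. All these points share library depth and the scaling of each library.

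The rows most like each of the others over the 16 libraries mostly lay opposite another gene (the share over all rows was not counted). For Gm37804 they were Ndufs1, opposite Ino80dos (r = 0.87), and St3gal6, opposite Dcbld2 (r = 0.87). For Gm29491 they were 9330154J02Rik, opposite Tpbg (r = 0.952, and 0.912 with group means removed), and Gm13441, opposite the laminin gene Lamc3 (r = 0.942 and 0.863). Bmp3 was followed by Chn2, opposite 9130019P16Rik and Gm15527 (r = 0.894), and Gm2895, opposite Ndrg1 (r = 0.882), and Ctgf by Lysmd4, opposite Mef2a (r = 0.864), and Gm10647, opposite BC050972 (r = 0.861). The low-count rows had weaker partners, with E030037K01Rik, opposite Cdkn2aip (r = 0.763), and C77080, opposite Yars (r = 0.754), for Tgfb1 and 0610038B21Rik, opposite Arhgap10 (r = 0.77), and Gm42435 (r = 0.735) for Thbs1.

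The rest of the pathway was read from lists of 25 ligands, 12 latency and matrix storage genes, 12 activators, 14 receptors, 15 Smads and regulators, 15 antagonists and 29 targets, leaving out the 7 rows. For NT3 against Ctrl in loaded limbs, 26 rows matched by name were tested, 0 higher and 1 lower (Tgfb2), with a median of -0.08, and 21 rows matched by the gene opposite were tested, 0 higher and 1 lower, with a median of -0.35. The background was 2.65% of 6080 rows called, with a median of -0.002. At an unadjusted edgeR p below 0.05 stood 7 rows by name and 7 by opposite gene, against 808 of all 6080 rows. DESeq2 called 2 by name and 1 by opposite gene. By name, Col1a2 (-0.66, SE 0.19; edgeR adjusted p = 0.0561) and Col3a1 (-0.96, SE 0.27; edgeR adjusted p = 0.0591) lay just above the threshold. The lower row by opposite gene was Gm17244, opposite Oxct2b and Bmp8b, a BMP ligand gene, with 30.7 ± 10.5 CPM in Ctrl and 9.64 ± 4.23 CPM in NT3 (log2 -1.68, SE 0.40; edgeR adjusted p = 0.0126). The Gm17244 call was lost without Ctrl mouse 3 (edgeR adjusted p = 0.0933) and without NT3 mouse 1 (edgeR adjusted p = 0.0508). The Bmp8b row itself was not called there (-0.14, SE 0.19; edgeR adjusted p = 0.857). Ppie, also opposite Bmp8b, was not called either (-0.92, SE 0.45; edgeR adjusted p = 0.382).

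In non-loaded limbs 0 of 24 rows matched by name were called for genotype, with 1 at an unadjusted edgeR p below 0.05 and 0 by DESeq2, and 1 of 20 matched by opposite gene was, where 0.579% of 6220 rows were called. That row was 0610040F04Rik, opposite Bhlhe40, a transcription factor gene induced by TGF-beta, at 67.4 ± 13.8 CPM in Ctrl and 122 ± 19.8 CPM in NT3 (log2 0.84, SE 0.20; edgeR adjusted p = 0.0372). Its call was lost without any 1 of Ctrl mice 2, 3 and 4 or NT3 mice 1, 2 and 3, with edgeR or DESeq2 adjusted p of 0.00859 to 0.207 over 13 alternatives.

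Averaged over the genotypes, loading raised 4 of 31 rows matched by name and lowered 1, where 4.39% of 7192 rows were called, with a median of 0.10 against -0.02 over all rows. The rows that rose belonged to the target list: the fibrillar collagen genes Col1a1 (1.63, SE 0.12; edgeR adjusted p = 1.68e-13), Col1a2 (1.22, SE 0.13; edgeR adjusted p = 1.21e-09) and Col3a1 (1.09, SE 0.22; edgeR adjusted p = 0.00225), and the cell-cycle inhibitor gene Cdkn2b (1.45, SE 0.27; edgeR adjusted p = 0.000246). Fstl3, an activin antagonist gene opposite the granulocyte protease gene Prss57, fell by 0.52 (SE 0.13; edgeR adjusted p = 0.0093). The Prss57 row went the other way without a call, by 0.36 (SE 0.13; edgeR adjusted p = 0.116), and by 0.58 in Ctrl (SE 0.18; edgeR adjusted p = 0.0583). With the marrow covariate 3 of the called rows lost their calls, Col3a1 at a larger value and SE (1.30, SE 0.42; edgeR adjusted p = 0.242), Cdkn2b at 1.0 (SE 0.46; edgeR adjusted p = 0.548) and Fstl3 at -0.38 (SE 0.24; edgeR adjusted p = 0.730). Fstl3 also lost its call without Ctrl mouse 3 (edgeR adjusted p = 0.0779), with no replicate block (edgeR adjusted p = 0.0684) and by DESeq2 (adjusted p = 0.0579).

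By opposite gene, against the same 4.39% over all rows, the loading average called 2 of 22 rows higher and 0 lower, with a median of 0.17. Apol7d, opposite the fibronectin gene Fn1, rose by 0.63 (SE 0.09; edgeR adjusted p = 1.13e-06) and kept its call under all 14 alternatives. Gm26903, opposite Bmp5 and Hmgcll1, rose by 0.34 (SE 0.08; edgeR adjusted p = 0.00816) and lost its call under 4 of them, among them without Ctrl mouse 2 (edgeR adjusted p = 0.065). Receptor, activator, latency and Smad lists had 0 rows called in this comparison, by name or by opposite gene. Few of their rows passed the filter, with 4, 4, 3 and 4 tested by name and 4, 2, 2 and 1 by opposite gene. With so few rows, 0 calls cannot be told from the 4.39% share over all rows.

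Within Ctrl, where 4.07% of all rows were called, loading raised 4 and lowered 1 of the 31 rows by name, and raised 3 of 22 by opposite gene, with medians of 0.37 and 0.24. Fstl3 lost its call there without Ctrl mouse 1, 2 or 3 (edgeR adjusted p = 0.195, 0.206 and 0.320), with the marrow covariate (edgeR adjusted p = 0.794), with no replicate block (edgeR adjusted p = 0.123) and by DESeq2 (adjusted p = 0.144), and Col3a1 and Cdkn2b did with the marrow covariate (1.76, SE 0.60, and 1.16, SE 0.69; edgeR adjusted p = 0.280 and 0.695). The row added to those above was Gm9913, opposite the microfibril gene Fbn1, which binds latent TGF-beta complexes (0.81, SE 0.23; edgeR adjusted p = 0.0383), and its call was lost without Ctrl mouse 2, 3 or 4 (edgeR adjusted p = 0.267, 0.135 and 0.177), with no replicate block (edgeR adjusted p = 0.162) and by DESeq2 (adjusted p = 0.113). Within NT3, where 0.417% of rows were called, Col1a1 rose by 1.19 (SE 0.16; edgeR adjusted p = 1.48e-05) as 1 of 31 rows by name (edgeR adjusted p = 0.659 with no replicate block), and 0 of 22 by opposite gene were called, with 4 at an unadjusted edgeR p below 0.05 and 0 by DESeq2. Gm37804, with 1.02 in Ctrl and 0.13 in NT3, moved in the same direction as these matrix rows in Ctrl.

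For the difference in loading response, where 0.139% of rows were called, the Col1a2 row was called lower among the 31 rows by name (-1.13, SE 0.25; edgeR adjusted p = 0.0459). It averaged 65.1 ± 31.9 and 214 ± 42.7 CPM in non-loaded and loaded Ctrl and 85.4 ± 23.8 and 135 ± 40.8 CPM in NT3. The call was lost under 9 of 14 alternatives, including without Ctrl mouse 1, 2 or 3 and without NT3 mouse 1, 2 or 3 (edgeR adjusted p = 0.0537 to 0.323). By opposite gene 0 of 22 rows were called, with 5 at an unadjusted edgeR p below 0.05 and 0 by DESeq2.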

How the data were processed

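Total RNA depleted of ribosomal RNA was sequenced single-end from 16 tibiae. The authors' alignment used STAR 2.4.2a and mm10, and their counting featureCounts 1.4.6 from Subread, with DESeq2 as a further tool, per the submitters' processing notes. The deposited values are whole-number counts of fragments per gene, and row lengths are given beside them. The counting's strand setting and annotation release are not given in the sources used here, and the library protocol names no step that marks strand. Of 47517 rows, 45250 matched GENCODE by symbol and 611 by an older symbol. A row was called opposite a gene at an exon overlap of at least 20 bases.

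Rows were filtered with filterByExpr (minimum count 10) and TMM scaled. They were tested with robust quasi-likelihood F tests in edgeR 4.0.16 (limma 3.58.1, statmod 1.5.0, R 4.3.3), adjusted by Benjamini-Hochberg over all rows and called at 0.05. Genotype fits used 8 libraries of separate mice. Loading fits used all 16 with a block for mouse, a pairing given by the design text. Deviations from the group mean correlated between the limbs of a mouse by 0.045 to 0.178. Limbs of different mice were not compared, so these values do not check the pairing. Per library, 758394 to 1064391 fragments limit the precision of low rows. For likeness, log2 CPM had a prior count of 2 and rows a mean of at least 20 fragments. The tests were checked on simulated data. Alternatives were RLE scaling, DESeq2 1.42.0, no low-count filter, library sizes without ribosomal RNA and Gm10800 rows, a marrow covariate, no mouse block, and each mouse left out.

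The 7 rows and all lists were chosen with earlier results of these data known. Named rows were the 7, the 2 most alike rows for each, the rows opposite them, the Tgfb2, Tgfb3 and Ltbp2 rows, and each pathway row called.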

Additional observations from a re-analysis of the deposited data

Results flagged for a closer look

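In 48 sets of 4 libraries (12 rows in 4 groups), 2 held a library far from the other 3, and chance alone marks about 1 set in 20. Ctgf in non-loaded Ctrl mouse 3 had 46.4 CPM, against 61.2 to 63.1 in the other mice. Ltbp2 in non-loaded NT3 mouse 2 had 9.03 CPM, against 25.8 to 27.7 in the others. The Col1a2 row differed between the genotypes in its loading response by -1.13 on the log2 scale (edgeR adjusted p = 0.0459), a rise with loading that was smaller in NT3.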

How the results depend on the processing

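Of 574 values of the 7 rows under the alternatives, 544 kept their sign. Shifts of more than 1 within-group SD included the Ctrl loading values of Bmp3 (-1.23) and Thbs1 (0.41), both with the marrow covariate. With that covariate the Bmp3 difference in loading response also shifted that far, from -0.57 to 0.19. The Bmp3 loading average, -0.36, ran from -1.13 to -0.22 over 14 alternatives. Loading averages were not compared with the SD. The genotype value of D030025P21Rik stayed between 1.74 and 2.05 in non-loaded and 1.79 and 1.98 in loaded limbs. That of Gm37804 in loaded limbs stayed between -1.40 and -0.99, and that of Gm29491 between -1.48 and -0.90. The Gm37804 loading average stayed between 0.50 and 0.70 (edgeR or DESeq2 adjusted p = 0.000296 to 0.106).

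Over all rows, DESeq2 called 197 for the loading average, 169 for loading in Ctrl and 19 in NT3, against 316, 293 and 30. Without the low-count filter 71 rows were called for genotype in non-loaded limbs, against 36, and 17 for the difference in loading response, against 10. With the marrow covariate these were 75 for non-loaded genotype, 53 for the loading average and 57 for loading in Ctrl. With no replicate block, that is without the pairing by mouse, 205 were called for the loading average, 171 for Ctrl, 5 for NT3 and 0 for the difference (335 at an unadjusted edgeR p below 0.05, and 10 called by DESeq2 with the block). Leaving out each mouse gave 12 to 77 for non-loaded genotype (77, 12 and 20 with Ctrl mouse 1, 2 or 3 left out, 14 with NT3 mouse 3 left out) and 119 to 201 for loaded genotype. It gave 222 to 334 for the loading average, 163 to 325 for Ctrl (163 and 188 with Ctrl mouse 2 or 3 left out), 17 to 44 for NT3 (17 without NT3 mouse 1) and 7 to 14 for the difference. The cause of these shifts was not tested. Tgfb1 (6 to 31 fragments), Thbs1 (4 to 27) and Tgfb3 (2 to 16) are the rows where depth limits what can be seen.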
